A study of Mus musculus with 11 samples.

Results

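Dividing cells were picked out of single-cell RNA-seq of whole mouse kidney by the transcripts they carried. A barcode, the tag that stands for a captured cell, was kept when it held at least 1000 UMIs (unique molecular identifiers, each marking a captured RNA molecule), at least 200 genes and at most 30% mitochondrial UMIs. It was called proliferating when at least 3 of 6 transcripts were detected in it, namely Mki67, Top2a, Birc5, Cdk1, Ube2c and 2810417H13Rik (also named Pclaf). The rule selected 677 of 34828 kept barcodes. Because these cells were chosen by the 6 transcripts, the levels of those transcripts in them are a description and were given no test.

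The libraries came from adult kidneys of male C57Bl/6 mice, each from a single mouse. The 5 control libraries (replicates 1 to 5, run in 3 batches) were from unoperated animals matched to the injured ones. The 3 UIR libraries (Unilateral Ischemia-Reperfusion) were from left kidneys whose pedicle had been clamped and released, and the 3 UUO libraries (Unilateral Ureteral Obstruction) from left kidneys whose ureter had been tied off for good, all at the same late time after surgery. In each injured group 1 library has no number in its label and the others are replicates 1 and 2; no batch is given for them, so a batch effect cannot be told apart from injury.

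The 6 transcripts belong to the machinery that copies and parts the chromosomes. Mki67 encodes the Ki-67 protein that coats mitotic chromosomes, Top2a the topoisomerase that untangles sister DNA strands, Birc5 the survivin subunit of the chromosomal passenger complex, Cdk1 the kinase that drives entry into mitosis, Ube2c a ubiquitin-conjugating enzyme that works with the anaphase-promoting complex, and Pclaf a PCNA-binding factor of replicating DNA. Genes of DNA synthesis are switched on by E2F factors at the start of S phase. Genes of G2 and mitosis are held silent in resting cells by the DREAM complex through the CHR element, and their promoters often hold a CCAAT box too. In the healthy adult kidney few tubule cells divide, and after injury division is known in tubules, in infiltrating myeloid and lymphoid cells and in the interstitium.

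Since these elements are short runs of letters before the gene's start, 7 promoters are shown. Each stretch holds 150 bases on the gene's strand, read 5′ to 3′ in mouse GRCm38.p6 from RefSeq, and ends before the first base of the gene in both RefSeq and GENCODE. Capitals mark the CHR letters TTTGAA or TTTAAA, the CCAAT box CCAAT and the E2F letters TTTGGCGC, TTTCGCGC, TTTCCCGC or GGCGGGAA on either strand; overlapping matches run together. The first 4 are the genes of the rule that hold any of these letters in this stretch; Birc5 and Pclaf hold 0 there and are not shown. The last 3 are the most abundant S-phase genes with E2F letters in this stretch among those eligible for printing. Genes without a single RefSeq promoter, or without 150 bases before both starts, were among those not eligible.

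Mki67, chr7:135716380-135716529, minus strand: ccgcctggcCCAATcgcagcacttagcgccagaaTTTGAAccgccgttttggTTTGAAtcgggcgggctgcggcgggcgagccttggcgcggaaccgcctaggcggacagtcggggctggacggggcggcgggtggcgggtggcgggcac
Top2a, chr11:99024190-99024339, minus strand: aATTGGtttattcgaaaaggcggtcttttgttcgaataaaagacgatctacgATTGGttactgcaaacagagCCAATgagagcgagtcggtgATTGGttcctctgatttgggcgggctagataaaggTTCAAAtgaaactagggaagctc
Cdk1, chr10:69352939-69353088, minus strand: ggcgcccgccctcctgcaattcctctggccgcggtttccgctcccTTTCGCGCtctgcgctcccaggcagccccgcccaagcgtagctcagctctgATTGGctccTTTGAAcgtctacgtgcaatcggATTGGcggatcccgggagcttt
Ube2c, chr2:164769748-164769897, plus strand: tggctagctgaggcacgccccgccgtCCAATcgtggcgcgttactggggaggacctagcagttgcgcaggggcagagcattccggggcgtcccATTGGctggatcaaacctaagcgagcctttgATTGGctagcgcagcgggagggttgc
Mcm6, chr1:128359706-128359855, minus strand: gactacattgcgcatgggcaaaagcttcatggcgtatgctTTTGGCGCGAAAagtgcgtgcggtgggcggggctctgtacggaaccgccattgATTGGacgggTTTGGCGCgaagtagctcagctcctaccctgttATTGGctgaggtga
Rrm1, chr7:102441545-102441694, plus strand: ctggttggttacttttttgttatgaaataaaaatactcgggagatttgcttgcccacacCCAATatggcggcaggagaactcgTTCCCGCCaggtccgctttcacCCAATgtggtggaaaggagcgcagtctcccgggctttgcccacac
Mcm5, chr8:75109359-75109508, plus strand: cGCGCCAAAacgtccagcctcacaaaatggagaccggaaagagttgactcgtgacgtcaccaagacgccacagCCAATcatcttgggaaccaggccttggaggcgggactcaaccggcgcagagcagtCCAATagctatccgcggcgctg

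In windows from 250 bases before to 50 bases after the start, CHR letters stood in 6 of 6 promoters of the rule genes. They stood in 36 of 46 promoters (78.3%) of a list of G2 and mitosis genes, in 9 of 35 (25.7%) of a list of S-phase genes and in 27.6% of all 32851 promoters in the table. E2F letters stood in 48.6% of the S-phase promoters, 4.35% of the G2 and mitosis promoters and 3.49% of all promoters. CCAAT stood in 68.6%, 73.9% and 37.4% of the same sets. RefSeq promoters were found for 41 of the 48 G2 and mitosis genes and 31 of the 43 S-phase genes; a match is a run of letters, not a measured binding site.

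Total depth was 49503312 to 117043590 UMIs per library over all barcodes. The 55 pairs of libraries shared 0 to 10 kept barcodes, at most 0.322% of the smaller library, and shared 0 proliferating barcodes. Against the number expected from the size of the barcode pool, the largest ratio was 8.25 and the largest excess 7.0 barcodes. Median mitochondrial shares of the kept barcodes were highest in controls, 14.0% to 20.8%, against 8.50% to 12.4% in UIR and 5.27% to 5.78% in UUO. Of the barcodes with at least 1000 UMIs, control libraries kept 2176 of 8304, 1728 of 12487, 1861 of 13971, 1892 of 13419 and 1984 of 15242. UIR libraries kept 3311 of 6858, 6147 of 13231 and 4583 of 8410, and UUO libraries 3764 of 4102, 4191 of 4683 and 3191 of 3869. The gene and mitochondrial limits thus removed most such barcodes in controls and a minority in UUO. The part of this in the shares below was not tested.

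The 6 transcripts stood far higher in the chosen barcodes, as the rule makes them. Among proliferating barcodes Top2a reached 599 CPM (UMIs of the gene scaled to a common total per group of barcodes) against 3.57 CPM in all other kept barcodes, and Mki67 reached 576 CPM against 3.05 CPM. All 6 transcripts were present in 236 barcodes, 5 in 141, 4 in 122 and 3 in 178. Just outside the rule lay 394 barcodes with 2 of the 6 (median 8144 UMIs), beside a median of 7858 UMIs for those with 3. Other cell-cycle genes stood higher too: Hmgb2, a chromatin protein of proliferating cells, was at 1711 CPM against 118 CPM, Stmn1, which destabilises microtubules, at 992 CPM against 56.6 CPM, and Cenpf of the kinetochore at 284 CPM against 1.07 CPM. These genes belong to the same cell-cycle programme as the rule's, so their levels are no independent test of the label.

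Proliferating barcodes made up a larger share of the kept barcodes in both injured models than in the controls. In controls they were 0.597%, 0.405%, 0.645%, 0.423% and 0.756% of kept barcodes in replicates 1 to 5. The unnumbered UIR library held 1.15%, UIR replicate 1 held 2.85% and UIR replicate 2 held 2.20%. The UUO libraries held 2.52%, 2.55% and 3.32% in the same order. Every injured library lay above every control. Control libraries averaged 0.565% ± 0.150 (SD, n = 5). The UIR mean was 2.07% ± 0.858 and the UUO mean 2.80% ± 0.452 (SD, n = 3 each).

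The exact permutation test over libraries gave two-sided p = 0.0357 for UIR and for UUO against control, the smallest p that 5 against 3 libraries allow, and 0.0536 after Benjamini-Hochberg adjustment over 3 contrasts. UUO exceeded UIR by 0.733 percentage points with overlapping libraries (exact permutation test, p = 0.3), so the models were not told apart. With 1 library left out in turn, that difference ran from 0.274 to 1.12 points. Batches of controls gave 0.597% for the first, 0.405% and 0.645% for the second, and 0.423% and 0.756% for the third, with no batch outside the range of another. Exact binomial 95% intervals of single libraries, which cover counting error only, ran from 0.163% to 0.833% at the lowest control and from 2.73% to 4.0% at the highest UUO library.

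Depth moved with this result. The median proliferating barcode held 9467 UMIs in controls, 15906 in UIR and 14580 in UUO (means over libraries), against 5145, 5424 and 5946 UMIs for all kept barcodes. Thinned to 1000 UMIs per barcode, the shares were 0.194% to 0.306% in controls, 0.249%, 0.914% and 0.687% in UIR and 0.892% to 1.0% in UUO. UUO stayed above every control at this fixed depth, while the unnumbered UIR library fell among the controls and the unadjusted p of UIR against control rose from 0.0357 to 0.143 (exact permutation tests).

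**Figure D1:**
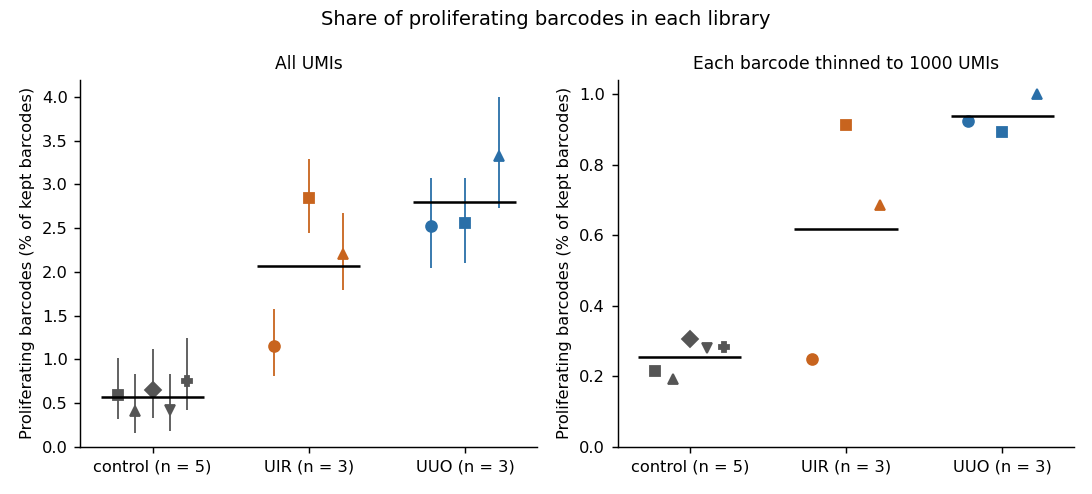
Share of kept barcodes that were proliferating (vertical axis, percent) in each library of the control, UIR and UUO groups, with all UMIs (left) and after thinning each barcode to 1000 UMIs (right). Points are libraries (square, triangle, diamond, inverted triangle and plus are control replicates 1 to 5; circles are unnumbered injured libraries), vertical lines exact binomial 95% intervals and horizontal lines group means; with all UMIs the 5 controls sit between 0.405% and 0.756%, below all 6 injured libraries, and after thinning the unnumbered UIR library at 0.249% lies among them.

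Free RNA of dividing cells was present too. In barcodes of 10 to 100 UMIs, too small to be cells, the 6 transcripts together made 9.67 to 887 CPM in controls, 82.2, 599 and 966 CPM in the UIR libraries and 136, 265 and 261 CPM in the UUO libraries. Kept barcodes outside the rule held 3.27 to 24.9 CPM. The high values stood in control replicates 2 and 3 as well as in UIR replicates 1 and 2, and the part of free RNA in the shares was not tested. Podocytes, which hardly divide, were proliferating in 0 of 576 barcodes at a median of 8426 UMIs, which allows a share of up to 0.521% (3 barcodes of the total, the limit used for each count of 0 here). In control libraries alone 0 of 239 podocytes were proliferating, which allows up to 1.26%. Summed over control libraries, epithelial cells (0.509%), macrophages (0.606%), distal tubule cells (0.160%) and endothelial cells (0.691%) lay below that control limit. Control T/NK cells stood at 3.2% (4 of 125) and control dendritic cells at 7.69% (3 of 39). Summed over injured libraries, macrophages stood at 3.01% in UIR and 2.87% in UUO, at medians of 4105 and 4730 UMIs. Among neutrophils, which leave the bone marrow after their last division, 0 of 304 were proliferating, which allows up to 0.987%.

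The 6 lineage transcripts showed that most proliferating cells of injured kidneys were immune. Ptprc (CD45, on all white blood cells) was detected in 69.1% of proliferating barcodes in UIR and 73.1% in UUO but in 16.4% in controls; in the other barcodes it was detected in 36.9%, 47.8% and 6.49%. C1qa, a complement gene of macrophages, was detected in 38.2% of the proliferating barcodes in UIR, 45.1% in UUO and 3.64% in controls. Cd3e of the T cell receptor complex was detected in 12.4%, 17.2% and 7.27%, and Epcam of epithelium in 28.7%, 16.9% and 9.09%. Pecam1 of endothelium was detected in 10.8%, 20.8% and 9.09%, and Pdgfrb of mesenchyme in 4.46%, 3.57% and 0%, the latter 0 of 55 control barcodes. In the other barcodes C1qa was detected in 28.9%, 38.8% and 4.38%, and Cd3e in 10.7%, 11.7% and 0.845%. Epcam was there in 29.5%, 21.97% and 13.1%, Pecam1 in 13.2%, 21.997% and 7.95%, and Pdgfrb in 6.12%, 7.704% and 2.11%. Each of these was thus also more frequent in injured than in control kidneys outside the rule. Proliferating barcodes were deeper, and the part of depth in these rates was not tested. None of these 6 was detected in 67.3% of the control barcodes, of which 33 of 55 were proximal tubule cells.

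Wider marker lists put each barcode in a class. Of the 677, 148 were macrophages, 143 dendritic cells, 93 T/NK cells, 140 epithelial cells (74 proximal and 37 distal), 36 endothelial, 15 stromal, 12 B or plasma cells and 6 other myeloid cells. A further 43 held markers of more than 1 lineage and 41 could not be named. The lineage transcripts other than Ptprc were among the naming markers, so their presence is no independent check of the names. C1qa was in 145 of 148 macrophages, Cd3e in 78 of 93 T/NK cells and Pecam1 in 32 of 36 endothelial cells. Pdgfrb was in 11 of 15 stromal cells and Epcam in 85 of 140 epithelial cells. Ptprc was in 143 of 143 dendritic cells, of which 28 held C1qa.

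Barcodes that resembled doublets were frequent among the proliferating ones. A score against simulated doublets that marked 7.5% of the barcodes of each library took out 327 of the 677 proliferating barcodes (48.3%), and in the unnumbered UUO library 4 proliferating barcodes of 54819 to 94129 UMIs held markers of 5 lineages each. How many of the 327 were true doublets was not tested. Without them the share was still higher in every injured library than in every control, by 0.749 points in UIR and 1.08 points in UUO on average (exact permutation test, p = 0.0357 each).

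The make-up of the dividing pool differed between control and injured kidneys, and so did that of all kept barcodes. Epithelial cells were 65.8% ± 17.8 of proliferating barcodes in controls, 24.05% ± 13.4 in UIR and 7.27% ± 4.50 in UUO (SD over 5, 3 and 3 libraries). Dendritic cells were 5.37% ± 5.38, 24.97% ± 5.82 and 22.8% ± 9.01, and macrophages 5.36% ± 7.36, 21.997% ± 5.82 and 24.6% ± 10.3 in the same order. Among all kept barcodes, proliferating or not, epithelial cells averaged 75.3%, 38.99% and 19.2%, dendritic cells 0.403%, 3.26% and 4.50%, and macrophages 3.46%, 15.8% and 24.1%. In UUO the macrophage part of the dividing pool was thus close to the macrophage part of the library, and the epithelial part lay below it in every group. For epithelial and dendritic cells in both models, and for macrophages in UIR, no injured library overlapped a control (exact permutation test, p = 0.0357 each, adjusted p = 0.107 over 21 contrasts), so these shifts were at the smallest p possible and did not pass the adjustment. With predicted doublets left out, the dendritic part no longer separated the groups (exact permutation test, p = 0.179 in UIR and 0.321 in UUO), and in UUO it did not at 1000 UMIs either (p = 0.107, exact permutation test). A mitochondrial limit of 15% ended the separation of the macrophage part in UIR (p = 0.25), the epithelial part in UIR (p = 0.107) and the dendritic part in UUO (p = 0.0714, exact permutation tests), and a minimum of 2000 UMIs that of the macrophage part in UIR (p = 0.179, exact permutation test). The macrophage share in UUO overlapped the controls (p = 0.0714, exact permutation test). Stromal cells made up 2.77% of proliferating barcodes in UIR and 2.27% in UUO, below their 5.06% and 6.02% of all kept barcodes. In controls they were 0 of 55 proliferating barcodes and 0.782% of kept barcodes, too few for a comparison.

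**Figure D2:**
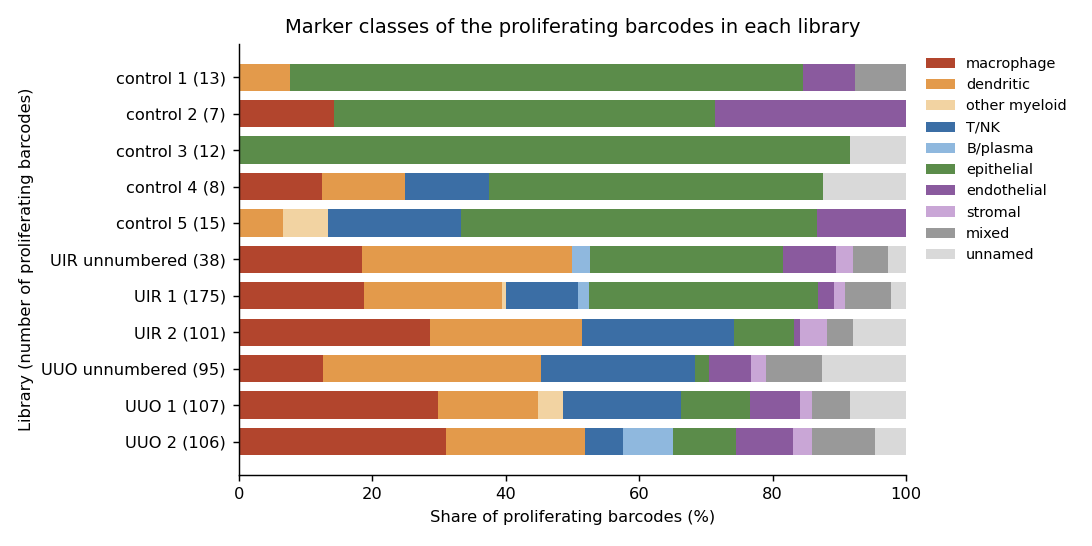
Marker classes of the proliferating barcodes in each library (1 bar per library, its number of proliferating barcodes in parentheses; horizontal axis, percent of those barcodes). Epithelial cells (green) are the largest class in each of the 5 control bars (7 to 15 barcodes each), while macrophages (red) and dendritic cells (orange) are present in all 6 injured bars.

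Composition mixes how many cells of a class there are with how often they divide, so the share of each class that was proliferating was taken next. Dendritic cells, which take up antigen and show it to T cells, had the highest share of the named classes with at least 20 barcodes in every injured library. Their proliferating share was 11.9%, 18.6% and 14.0% in the unnumbered UIR library and UIR replicates 1 and 2, and 15.3%, 8.21% and 20% (22 of 110) in the UUO libraries in the same order. Macrophages had shares of 1.88%, 3.22% and 3.25% for the UIR libraries and 1.95%, 2.65% and 3.83% for the UUO libraries. The lowest dendritic value lay above the highest macrophage value.

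Within libraries the dendritic share exceeded the macrophage share by 11.9 ± 3.93 percentage points (SD, n = 6 libraries), in 6 of 6 (exact sign-flip permutation test, p = 0.03125, the smallest that 6 libraries allow; adjusted p = 0.0547 over 7 comparisons). Dendritic barcodes were deeper, with a median of 14051 UMIs against 4209 for macrophages. After thinning to 1000 UMIs the shares were 4.12% against 0.885%, and at 2000 UMIs 7.38% against 1.71%. They were higher in dendritic cells with the same p (exact sign-flip permutation test). Thinning covered the 6 transcripts only, while classes were named at full depth. The part of depth in the naming was not tested. Control kidneys held 39 dendritic barcodes in all, of which 3 were proliferating (7.69%, exact binomial 95% interval 1.62% to 20.9%), too few per library for a comparison.

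The proliferating share of macrophages was higher in every injured library than in every control. The mean was 0.571% ± 0.786 (SD, n = 5) in controls, resting on 2 of 330 barcodes. It was 2.78% ± 0.781 (SD, n = 3 in each model) in UIR and 2.81% ± 0.95 in UUO, with no overlap in either model. The exact permutation test gave p = 0.0357 for each and an adjusted p of 0.268 over 15 contrasts, so the difference did not pass. At 1000 UMIs the differences were 0.574 points in UIR (p = 0.286, exact permutation test) and 0.642 points in UUO (p = 0.143, exact permutation test). With predicted doublets left out they were 1.62 and 1.33 points, and the libraries overlapped (exact permutation test, p = 0.0714 each).

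Macrophages also exceeded epithelial cells within injured libraries by 1.61 ± 0.649 points and endothelial cells by 1.82 ± 0.770 points (SD, n = 6), in 6 of 6 libraries each (exact sign-flip permutation test, p = 0.03125, adjusted p = 0.0547). They were not told apart from T/NK cells, the difference being 0.389 ± 1.61 points (exact sign-flip permutation test, p = 0.594, adjusted p = 0.664).

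T/NK cells varied more between libraries than between groups. Their proliferating share was 2.94% and 2.75% in UIR replicates 1 and 2 and 3.45%, 3.93% and 1.37% in UUO, but 0 of 385 T/NK barcodes were proliferating in the unnumbered UIR library, which allows up to 0.779%. In controls 3 of 26 were proliferating in replicate 5 and 1 of 30 in replicate 4. No contrast of groups passed (exact permutation tests, p = 0.5 to 0.929).

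In epithelium the proliferating share was 0.501% ± 0.206 in controls, 1.24% ± 0.952 in UIR and 1.13% ± 0.787 in UUO (SD over 5, 3 and 3 libraries). The UIR mean rested on replicate 1, where 60 of 2570 epithelial barcodes (2.33%) were proliferating against 0.769% and 0.614% in the others. The UUO libraries stood at 0.260%, 1.34% and 1.79%, the unnumbered one (2 of 768) below every control. In proximal tubule, which reabsorbs most of the filtrate, the share was 1.69%, 2.04% and 2.70% in UUO against 0.292% to 0.964% in controls (exact permutation test, p = 0.0357, adjusted p = 0.214 over 6 contrasts); these UUO values stand for 1 of 59, 2 of 98 and 3 of 111 barcodes. In UIR the proximal share was 1.36%, 2.51% and 0.207%, the last (1 of 483 in replicate 2) below every control (exact permutation test, p = 0.214, adjusted p = 0.321). UUO proximal barcodes were deep, at a median of 16412 UMIs against 5890 in controls. At 1000 UMIs the epithelial difference from control, between means over libraries, turned to −0.0249 points in UIR and −0.0374 points in UUO. Summed over libraries, the whole epithelium stood there at 0.215% in controls, 0.242% in UIR and 0.179% in UUO. UUO thus showed no increase on either basis at that depth, and in UIR the sign depended on the basis. In proximal tubule alone the sums at 1000 UMIs were 0.235% in controls, 0.375% in UIR and 0.354% in UUO, and at 2000 UMIs 0.441%, 0.835% and 0.216%, so UUO changed sides. In the sums at 2000 UMIs the whole epithelium stood at 0.390%, 0.560% and 0.249% in the same order.

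In distal nephron segments the share was 0.328%, 1.19% and 0.571% in UIR, 0.161%, 1.27% and 1.08% in UUO, and 2 of 1251 barcodes in controls, both in replicate 1. Endothelial cells, which line the capillaries, were proliferating at 0.565% ± 0.274 in UIR against 1.39% ± 0.510 in UUO (SD over 3 libraries each), without overlap; 3 against 3 libraries cannot go below p = 0.1, and that was the value of the exact permutation test (adjusted p = 0.402). At 1000 UMIs that difference shrank from 0.824 to 0.143 points. Stromal cells were proliferating at 1.06% ± 0.428 in UIR and 1.14% ± 0.575 in UUO (SD over 3 libraries each), on 8 and 7 barcodes, while 0 of 75 control stromal barcodes were, which allows up to 4%.

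**Figure D3:**
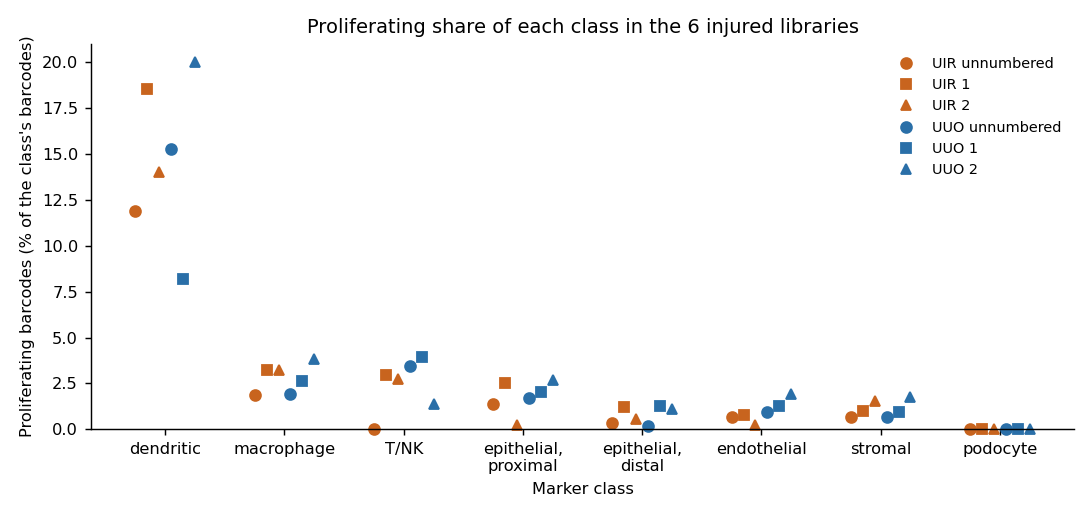
Proliferating share of each marker class (vertical axis, percent of that class's barcodes) in the 6 injured libraries (orange UIR, blue UUO; circle unnumbered, square replicate 1, triangle replicate 2). Dendritic cells span 8.21% to 20%, above every library of the other 7 classes drawn, and podocytes are at 0 in all 6; B or plasma cells, not drawn, were at 14.3% (3 of 21) in UIR replicate 1 and 8.25% (8 of 97) in UUO replicate 2.

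B and plasma cells were few. All 12 proliferating B or plasma barcodes held Mzb1, a chaperone of antibody-secreting cells, and 10 of 12 held Jchain, the joining chain of secreted IgM and IgA, against 71.9% and 11.7% of the other B or plasma barcodes. Ms4a1 (CD20, lost as B cells become plasma cells) was detected in 8 of 12 against 84.7%. The proliferating barcodes were far deeper, at a median of 30426 UMIs against 4043 in the others. By level, Jchain was not higher in them, at 16300 CPM against 18321 CPM, while Mzb1 was at 3194 CPM against 1435 CPM. Of the 12, 8 came from UUO replicate 2 and 3 from UIR replicate 1.

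The dividing cells of different lineages shared a cycle programme. Against the other cells of their class, genes of spindle motors and cytokinesis were together 38.0-fold higher in macrophages, 51.2-fold in dendritic cells, 29.9-fold in T/NK cells, 44.8-fold in epithelium and 260-fold in endothelium, and 17 of 17 were more than 2-fold higher in each. Kinetochore genes stood at 23.1-fold to 120-fold in these 5 classes, with 13 of 13 more than 2-fold higher. The S-phase list was 4.76-fold to 5.90-fold higher and the G2 and mitosis list 5.23-fold to 11.2-fold. The size of these ratios follows from the rule, since cells were picked by genes of the same programme, and no test was made.

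CDK inhibitors, the brakes of the cycle, summed to smaller ratios than those lists. They stood at 1.71-fold in macrophages, 1.60-fold in dendritic cells, 1.10-fold in T/NK cells, 1.55-fold in epithelium and 3.06-fold in endothelium. Small ratios were not particular to the brakes. The list of cyclins and kinases stood at 2.81-fold in macrophages, 1.73-fold in dendritic cells, 1.96-fold in T/NK cells and 3.06-fold in epithelium. In endothelium its ratio lay below that of the CDK inhibitors. By gene, 3 of 7 CDK inhibitors were more than 2-fold higher and 0 more than 2-fold lower in both macrophages and epithelium. They were Cdkn2a, Cdkn2c and Cdkn2d, with Cdkn2c at 64.7 CPM against 11.6 CPM in macrophages and 55.2 CPM against 12.5 CPM in epithelium. In the 36 endothelial cells Cdkn1a (p21, a target of p53) was at 515 CPM against 171 CPM in other endothelial cells. Ccnd1, the D-type cyclin that answers growth signals, was there at 967 CPM against 385 CPM. Over all proliferating cells Cdkn1a was at 85.9 CPM against 86.3 CPM. The mitotic cyclins Ccnb2 and Ccna2 were at 153 CPM and 111 CPM against 1.10 CPM and 0.555 CPM, and Foxm1, which drives mitotic genes, at 30.5 CPM against 0.653 CPM.

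**Figure D4:**
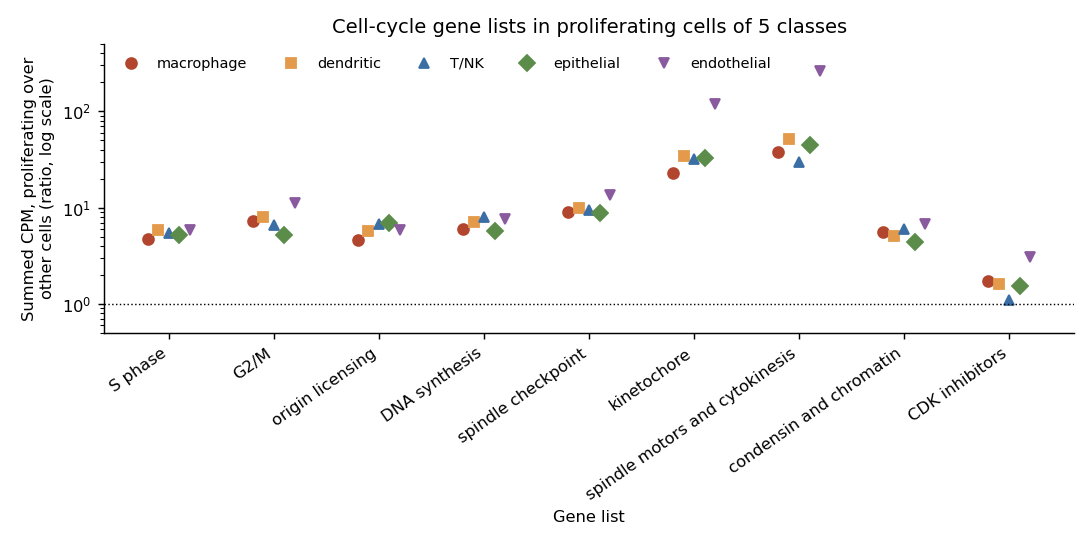
Summed CPM of 9 gene lists in proliferating cells divided by that in other cells of the same class (vertical axis, ratio on a log scale; the dotted line marks equal levels), for 5 classes with 36 to 148 proliferating cells. The kinetochore list and the list of spindle motors and cytokinesis stand highest, at 23.1-fold to 260-fold, and of the 9 lists drawn the CDK inhibitors lowest, at 1.10-fold to 3.06-fold.

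The balance between S phase and mitosis was read as the S-phase list's share of all UMIs on the S-phase and the G2 and mitosis lists, both without the 6 genes of the rule. Over all proliferating cells it was 31.7%, 26.5% and 29.97% in the UIR libraries and 30.4%, 29.2% and 33.6% in the UUO libraries (unnumbered, 1, 2). The libraries overlapped and the exact permutation test gave p = 0.5. Summed over libraries, the share was 30.9% in macrophages, 29.2% in dendritic cells and 29.9% in T/NK cells, 32.7% in epithelium, 21.8% in endothelium and 13.7% in the 15 stromal cells. Macrophages gave 19.3% and 33.8% for the UIR libraries, 40.5% and 31.4% for the UUO libraries, and in dendritic cells 24.5% and 29.3% against 30.5% and 37.7%, in libraries with at least 20 such cells. With 2 against 2 libraries the exact permutation test cannot go below 0.333, and it gave 0.667 and 0.333. Epithelial cells of UUO stood apart in the sums at 44.6%, from 23 cells.

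Summed over their lists, several groups of macrophage genes were lower in proliferating than in other macrophages of the same library. Lipid-associated genes, a set found in scar-associated macrophages, summed to 14342 CPM and 14379 CPM in proliferating cells of UIR replicates 1 and 2 and to 15754 CPM and 26887 CPM in UUO replicates 1 and 2. The other macrophages of these libraries held 43030, 33955, 36870 and 41880 CPM, so the list was lower in 4 of 4. Most of that gap was Apoe, the lipid carrier, at 10919, 11045, 12388 and 16651 CPM against 37716, 30058, 32082 and 35927 CPM. Over all libraries Apoe was the 1 gene of 10 more than 2-fold lower, while Fabp5 and Gpnmb were more than 2-fold higher. Fabp5, a fatty acid binding protein, was lower in proliferating cells of 3 libraries and far higher in UUO replicate 2, at 1791 CPM against 308 CPM.

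Antigen-presentation genes (MHC class II and its chaperone Cd74) summed to 47142, 50015, 39502 and 27625 CPM in proliferating macrophages against 59605, 69971, 68055 and 52688 CPM in the others, lower in 4 of 4, although over all libraries 0 of the 7 genes was more than 2-fold lower. In the unnumbered UUO library, with 12 proliferating macrophages, H2-Eb1 of that list went the other way, at 12737 CPM against 11789 CPM. Resident-macrophage genes such as C1qa were also lower in 4 of 4, by ratios of 0.681 to 0.834, and inflammatory genes by ratios of 0.363 to 0.872. Ccr2, the receptor that brings monocytes from blood, was detected in 58.1% of proliferating macrophages against 36.6% of the others, at 591 CPM against 473 CPM. The median depth was 9580 UMIs in the proliferating macrophages and 4134 UMIs in the others. Monocyte-derived genes did not move together: the list of 7 summed to 1.25-fold, with 1 gene more than 2-fold higher and 3 more than 2-fold lower. Ly6c2 of fresh monocytes was in 4 of 148 proliferating macrophages and Cd163 of resident macrophages in 0 of 148, counts not set against the other macrophages here.

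Proliferating dendritic cells likewise held less MHC class II, at 0.752 to 0.814 of the level in other dendritic cells in 4 of 4 libraries. Inflammatory genes stood at 0.305 to 0.607 and interferon-response genes at 0.419 to 0.682 of that level, lower in 4 of 4 each. With predicted doublets left out, the log2 ratio of the interferon list over all libraries went from −0.91 to −0.46, and in the unnumbered UUO library its members Ifit3 (112 CPM against 48.4 CPM) and Ifit1 (52.7 CPM against 21.5 CPM) stood higher in proliferating cells. Of the conventional dendritic subsets, the cross-presenting type 1 marker Xcr1 was at 263 CPM in proliferating cells against 198 CPM in the others, but was higher in 2 libraries and lower or about equal in the other two. The type 2 markers Cd209a and Clec10a were at 393 CPM against 685 CPM and at 158 CPM against 302 CPM, lower in 3 of 4 libraries each. Ccr7, worn by mature dendritic cells on the way to lymph nodes, was in 2 of 143 proliferating cells against 7.07% of the others, and Siglech of plasmacytoid cells in 8 of 143 against 7.53%. Those 8 cells held 1 UMI of Siglech each, so its level was 2.65 CPM against 81.6 CPM.

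**Figure D5:**
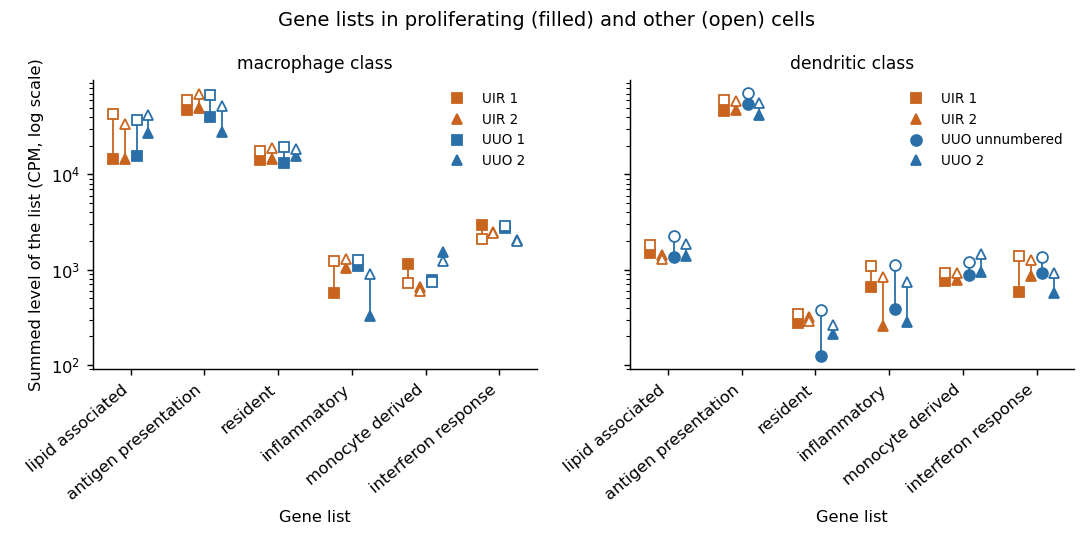
Summed level of 6 gene lists (vertical axis, CPM on a log scale) in proliferating cells (filled) and other cells (open) of the macrophage class (left) and the dendritic class (right); each line joins both values of a library with at least 20 proliferating cells of the class (orange UIR, blue UUO; circle unnumbered, square replicate 1, triangle replicate 2). Filled points lie below open ones for lipid-associated, antigen-presentation, resident and inflammatory genes in macrophages, and for antigen-presentation, inflammatory and interferon genes in dendritic cells, in 4 of 4 libraries each.

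Lists of cytotoxic and innate-like genes summed lower in proliferating T/NK cells. Cytotoxic genes summed to 2340 CPM against 6095 CPM in UIR replicate 2 and 2735 CPM against 8044 CPM in the unnumbered UUO library, where pools had at least 20 cells. Over all libraries Ccl5, a chemokine of effector cells, was at 1293 CPM against 4400 CPM and Nkg7 of cytotoxic granules at 803 CPM against 1260 CPM, while Gzmb (granzyme B) was at 95.2 CPM against 55.7 CPM. Genes of gamma-delta T and NK cells summed to 45.3 CPM against 281 CPM and 58.7 CPM against 527 CPM in these libraries. Ncr1 of NK cells was in 1 of 93 proliferating cells, a count not set against the other T/NK cells here. Cd4 was detected in 40 of 93 and Cd8a in 30 of 93, counts likewise not set against the other T/NK cells. Foxp3 of regulatory T cells was in 19 of 93 against 13.2% of other T/NK cells, although its level was 46.5 CPM against 79.4 CPM. The proliferating T/NK barcodes were deeper, at a median of 12242 UMIs against 4117 in the others. With predicted doublets left out, the log2 ratio of Foxp3 went from −0.77 to −2.54.

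Injury genes of the epithelium did not move together in its proliferating cells. The list of 14 summed to 1.22-fold its level in other epithelial cells over all libraries, with 3 genes (Havcr1, Vcam1 and Cp) more than 2-fold higher and 0 more than 2-fold lower. Havcr1 (KIM-1, the tubular injury receptor) was detected in 26 of 80 proliferating epithelial cells in UIR, 32.5% against 5.27% of the others, at 263 CPM against 23.9 CPM. In UIR replicate 1, which held 60 of them, it was at 356 CPM against 34.9 CPM. In UUO it was in 4 of 23 (17.4% against 5.75% of the others), at 420 CPM against 21.8 CPM, with 386 of the 387 UMIs in replicate 2. In controls it was in 1 of 37. Vcam1, an adhesion molecule of failed-repair tubules, was at 404 CPM against 115 CPM in UIR and 421 CPM against 216 CPM in UUO. Sox9, a factor of regenerating tubules, was at 52.9 CPM against 33.2 CPM in UIR and 87.9 CPM against 60.3 CPM in UUO. Members of the list that stood lower included Sox4, at 355 CPM against 449.9 CPM in UIR and 378 CPM against 656 CPM in UUO, and Spp1 (osteopontin) in UUO, at 9018 CPM against 13585 CPM, although Spp1 was at 10509 CPM against 9768 CPM in UIR. Lcn2 was at 937 CPM against 857 CPM in UIR, at 1703 CPM against 1957 CPM in UUO and in 0 of 37 control cells.

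Immune transcripts moved with these cells. Ptprc was in 24 of 80 proliferating epithelial barcodes in UIR against 13.5% of the others, in 9 of 23 against 17.3% in UUO and in 0 of 37 in controls. Antigen-presentation genes summed to 2843 CPM against 1024 CPM in UIR replicate 1. With barcodes holding markers of more than 1 lineage left out, the log2 ratio of that list over all libraries went from 1.52 to 0.36, and that of Havcr1 from 4.08 to 3.05. Mature proximal genes differed less once each group was taken alone. Lrp2 (megalin) was at 248 CPM in proliferating cells against 334 CPM in UIR, 1172 CPM against 1296 CPM in controls and 89.0 CPM against 87.0 CPM in UUO, and Slc34a1, the phosphate transporter, at 519 CPM against 626.5 CPM, 1708 CPM against 2282 CPM and 127 CPM against 158 CPM.

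Whether dividing cells of a class differed between the models was tested with edgeR's quasi-likelihood test on UMIs summed per library, with at least 20 cells per pool and Benjamini-Hochberg adjustment over all genes; no control library had such a pool. In macrophages (UIR replicates 1 and 2 against UUO replicates 1 and 2) 1 of 5186 genes passed (0.0193%). It was Hist1h2ap, a replication-dependent histone H2A gene (chr13:21833026-21833507), at 725 and 718 CPM in UIR and 1706 and 2114 CPM in UUO, a log2 difference of 1.35 ± 0.156 (SE, edgeR adjusted p = 0.0432). The unnumbered UUO library, left out with 12 cells, held it at 948 CPM. With pools of at least 10 cells, or with 2 of the 6 genes required, it no longer passed (edgeR adjusted p = 0.53 and 0.65). Near-identical histone genes can share its reads, so the gene is uncertain. At an unadjusted p under 0.05 there were 304 genes.

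By list, 29 of 36 tested S-phase genes were higher in UUO than in UIR macrophages (median log2 difference 0.21) and 11 of 44 G2 and mitosis genes (median −0.24), against a median of −0.0019 over all genes, and 0 of either list passed. The 7 antigen-presentation genes had a median log2 difference of −0.59, with 0 of them above 0, and 0 passed. Of these, H2-Eb1 of MHC class II was at 8314 and 8426 CPM in UIR and 5568 and 4472 CPM in UUO. The unnumbered UUO library, left out here with 12 macrophages, held more of it than either UIR library, as given above.

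In dendritic cells (UIR replicates 1 and 2 against the unnumbered UUO library and UUO replicate 2) 1 of 6144 genes passed (0.0163%), with 645 at an unadjusted p under 0.05. Gpx3, a glutathione peroxidase that the proximal tubule secretes (chr11:54902453-54910377), was at 192 and 116 CPM in UIR and 14.8 and 21.9 CPM in UUO, a log2 difference of −3.07 ± 0.357 (SE, edgeR adjusted p = 0.00809). The other dendritic cells showed it too, at 126 to 228 CPM in UIR and 12.2 to 22.2 CPM in UUO. In barcodes of 10 to 100 UMIs Gpx3 was at 990 and 1581 CPM in the tested UIR libraries. It was at 1537 and 1647 CPM in such barcodes of the tested UUO libraries. Outside the test, the unnumbered UIR library held 4363 CPM in such barcodes and UUO replicate 1 held 692 CPM. Other tubule transcripts, chosen after their values were seen, were also lower in UUO in the same proliferating pools, Kap at 233 and 64.8 CPM against 16.5 and 7.32 CPM and Fxyd2 at 65.3 and 58.1 CPM against 24.7 and 21.9 CPM. In barcodes of 10 to 100 UMIs of these libraries Kap was at 1923 and 2735 CPM in UIR against 2738 and 2068 CPM in UUO. Fxyd2 was there at 617 and 1737 CPM against 1271 and 1051 CPM. The part of free tubular RNA in the Gpx3 value was not tested. Of S-phase genes 30 of 43 and of G2 and mitosis genes 7 of 45 were higher in UUO, with 0 called in either list. For spindle motors and cytokinesis 0 of 16 were higher (median −0.55), also with 0 called.

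An interaction term asked whether the difference between models was another one in proliferating than in the other cells of the class. In macrophages 4 of 10556 genes passed (0.0379%). Ear2, an eosinophil-associated ribonuclease of some monocytes, was at 37.1 and 22.7 CPM in UIR and 75.1 and 71.8 CPM in UUO in proliferating cells but at 82.4, 51.3, 40.4 and 30.6 CPM in the others (interaction 2.27 ± 0.396 log2, edgeR adjusted p = 0.0262). Traf1, an adaptor of TNF receptors, was at 47.2 and 108 CPM in UIR and 5.36 and 12.0 CPM in UUO in proliferating cells against 25.8 to 35.9 CPM in the others (−2.87 ± 0.531, edgeR adjusted p = 0.0356). Plac8 and Cxcl9 also passed and fell outside the naming rule, Plac8 with overlapping libraries and Cxcl9 at low levels; without UIR replicate 2, Traf1, Plac8 and Cxcl9 no longer passed.

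In dendritic cells 5 of 8368 genes passed (0.0598%), of which Ifit3, Ifit1 and Rsad2 are on the interferon-response list, 3 of its 10 tested genes. Ifit3 was at 11.9 and 11.2 CPM in UIR and 112 and 32.9 CPM in UUO in proliferating cells, while the others held 57.0 and 39.8 CPM in UIR and 48.4 and 18.7 CPM in UUO (3.29 ± 0.406, edgeR adjusted p = 0.0064). Cxcl10, an interferon-induced chemokine, had 0 UMIs in both UIR pools and 66 and 1 UMIs in the UUO pools (108.6 and 1.83 CPM), so its fitted value is no measure of size. Rsad2 and Ifit1, named after their values were seen, moved with them at low counts. UUO replicate 1, left out with 16 cells, went the other way, with Ifit3 at 32.6 CPM in proliferating against 148 CPM in other dendritic cells, Ifit1 at 27.6 CPM against 112 CPM and Cxcl10 at 25.1 CPM against 98.9 CPM. With pools of at least 10 cells, Ifit3, Ifit1 and Rsad2 no longer passed (edgeR adjusted p = 0.715, 0.715 and 0.0915). Lyz2 (lysozyme of myeloid cells) was at 487 and 887 CPM in UIR and 313 and 357 CPM in UUO in proliferating cells but higher in UUO in the others (−1.68 ± 0.243, edgeR adjusted p = 0.025). Without the unnumbered UUO library 0 genes passed, and without UUO replicate 2 the number was 2 and included neither Ifit3 nor Lyz2. The fitted differences of Ifit3 and Lyz2 stayed of like size in these smaller designs, at 3.02 and 3.39 for Ifit3 and −1.82 and −1.54 for Lyz2. With each of the 4 libraries left out in turn, Ifit1 ran from 2.65 to 6.47 and Rsad2 from 3.89 to 8.43. None of these designs holds UUO replicate 1, which went the other way.

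For T/NK cells, pools of at least 20 cells were too few, and with at least 10 cells 0 of 4067 genes passed edgeR's test between models, with 166 at an unadjusted p under 0.05. Proliferating endothelial and stromal cells had too few pools at either limit for a test of single genes. Epithelial cells had too few pools of at least 20 cells. Their pools of at least 10 cells, with 11 and 60 cells in UIR and 11 and 10 in UUO, were not tested.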

How the data were processed

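The authors deposited raw UMI counts per gene and barcode for 11 libraries (10x Single Cell 3′ chemistry; Cell Ranger 3.1.0 in the headers, another version in the methods; mm10), with all barcodes and before their free-RNA and doublet steps. From these counts barcodes were kept and named at full depth by marker lists. A name needed at least 2 markers and 3 UMIs, above the free RNA expected from barcodes of 10 to 100 UMIs. A barcode with over 1 lineage passing within 4-fold was mixed. Thinning (20 seeded draws) was applied to the 6 transcripts only. Shares were compared by exact permutation tests over libraries. Summed UMIs were tested with edgeR 4.0.16 (R 4.3.3, filterByExpr, TMM); DESeq2 1.42.0 was an alternative. On simulated macrophage pools edgeR called 18 of 95 genes changed 2-fold and 79 of 99 changed 4-fold, with 6 false calls of 5182. Members and lists were chosen with earlier results of these data known; the naming limits and the myeloid split were set after the files were seen. Named genes passed an adjusted p of 0.05 at 50 CPM or more with libraries apart, or are list members. Level ratios, and a block with pools of at least 10 cells, were added after seeing the data. Replicate numbers of UIR and UUO did not pair the libraries by the check described in the closing section. Clustering and doublet removal by the study's own tools were not used here.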

Additional observations from a re-analysis of the deposited data

Results flagged for a closer look

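Among control libraries, 3 of 26 T/NK barcodes of replicate 5 were proliferating (11.5%), far from the other controls at 0% to 3.33%: its gap to the nearest library is 0.711 of the range. In distal tubule replicate 1 was the control library with any proliferating barcode, at 0.690%, a gap of 1 of the range. Of 16 sets of control values examined this way 2 stood out, and both rest on 3 or fewer barcodes. The rate of 1 in 20 that chance gives for independent, continuous values does not hold here, since the sets overlap and many values are 0. With every other control at 0, the distal gap could only be 1.

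In 4 genes of macrophages and 5 genes of dendritic cells the difference between UUO and UIR was not the same in proliferating and other cells by edgeR's interaction test; the genes are named above.

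Barcodes too small to be cells held transcripts of the 6 genes well above their level in kept barcodes outside the rule. The level was 79.6 CPM in control replicate 1, 641 in control replicate 2 and 887 in control replicate 3. It was 599 in UIR replicate 1, 966 in UIR replicate 2, 265 in UUO replicate 1 and 261 in UUO replicate 2. Control replicates 4 and 5 held 16.3 and 9.67 CPM. All 6 genes took part, as in UIR replicate 2, where Mki67 made 356 CPM and Ube2c 136 CPM.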

How the results depend on the processing

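With 2 of the 6 genes required, the difference UUO minus UIR in all barcodes was 1.62 points, the epithelial share exceeded control by 1.19 in UIR and 1.90 in UUO (p = 0.0357, exact permutation test), T/NK in UUO turned to 0.907 and macrophage minus endothelial over all libraries rose to 2.23. With 4 genes required, the macrophage share exceeded control by 1.63 in UIR and 1.498 in UUO, endothelium in UIR turned to 0.0831, macrophage minus epithelial over all libraries was 0.567 and macrophage minus T/NK in injured libraries −0.124. A mitochondrial limit of 15% gave 1.51 for all barcodes in UIR against control (p = 0.0714, exact permutation test), 2.24 and 1.94 for macrophages in UIR and UUO and 0.00447 for endothelium in UIR. It moved the macrophage share of proliferating barcodes in UIR to 11.9, the dendritic share in UUO to 14.95 and the epithelial share in UIR to −29.9 points against control, and the macrophage share minus that of epithelium, T/NK and endothelium over all libraries to 0.956, 0.539 and 1.33. A limit of 50% gave 0.112 for T/NK in UUO, 21.7 for the macrophage part and 1.23 for the endothelial part in UUO. A minimum of 500 UMIs gave 1.399 and 1.26 for macrophages in UIR and UUO, 0.391 for macrophage minus epithelial and −0.566 for macrophage minus T/NK; a minimum of 2000 UMIs gave 12.9 for the macrophage part in UIR and 1.42 for macrophage minus endothelial.

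Thinned to 1000 and 2000 UMIs, UIR exceeded control by 0.361 and 0.783 in all barcodes and by 0.574 and 1.25 in macrophages, and UUO by 0.642 and 1.43 in macrophages and 0.333 and 0.340 in T/NK cells. Epithelium in UUO turned to −0.0374 and −0.120 and in UIR at 1000 UMIs to −0.0249. Endothelium in UIR turned to 0.0796 at 2000 UMIs, and UUO minus UIR in endothelium was 0.143 at 1000. Of the proliferating barcodes the dendritic part in UUO was 10.8 and 15.7 above control, the macrophage part in UIR 15.01 above it at 2000, and the endothelial part −1.53 for UUO minus UIR at 1000 and 0.834 for UUO at 2000. Macrophage minus T/NK was −0.209 at 1000 and macrophage minus endothelial 1.09 at 2000 in injured libraries. With predicted doublets left out, macrophages exceeded control by 1.62 and 1.33, the dendritic part by 17.5 and 12.6 and the endothelial part in UUO by 0.226, and macrophage minus epithelial and minus endothelial over all libraries were 0.546 and 0.732. The log2 ratio of Clec9a in dendritic cells turned from 0.02 to −0.00765 with mixed barcodes left out. At each value given so far for macrophages against control, and for the macrophage, dendritic and epithelial parts, injured and control libraries overlapped, except for the macrophage part in UUO at a limit of 50%, where they separated. The cause of these changes was not tested.

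Gene counts depended on the fit. In proliferating macrophages 1 call became 8 with DESeq2, 102 with no filter on low counts, 0 with pools of at least 10 cells (255 at an unadjusted p under 0.05), 9 with 2 of the 6 genes and 4 without mixed barcodes; the interaction rose from 4 to 32 with no filter. In dendritic cells 1 call became 78 with no filter, 2 with pools of at least 10 cells and 8 with 2 of the 6 genes, and the interaction went from 5 to 37 and 3. Equal replicate numbers correlated at −0.15 to 0.05 in proliferating macrophages, 0.06 to 0.21 in proliferating dendritic cells, −0.12 to 0.13 and 0.02 to 0.26 in the others of these classes and 0.06 to 0.37 in other T/NK cells. In no class was every pair over 0.1, so the numbers were not taken as pairs. With the replicate block macrophages gave 9 genes, and 26 with pools of at least 10 cells, where dendritic cells gave 35; the UUO minus UIR share stayed at 0.733.

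Leaving out 1 library in turn gave 1.11 to 1.96 in UIR and 1.97 to 2.37 in UUO for all barcodes against control, and for macrophages 1.98 to 2.66 and 1.73 to 2.67. T/NK gave −1.82 to 1.06 and −0.800 to 2.08, epithelium 0.191 to 1.05 and 0.300 to 1.07, and endothelium in UIR −0.324 to 0.0897. Parts of proliferating barcodes against control gave 13.3 to 18.9 for macrophages in UIR, 16.3 to 21.8 and 12.5 to 21.3 for dendritic cells, −46.9 to −34.2 and −62.5 to −52.1 for epithelium in UIR and UUO, −1.07 to 10.3 for T/NK in UIR and −4.97 to 2.17 for endothelium in UUO. Within libraries, dendritic minus macrophage gave 10.998 to 13.1; macrophages minus epithelium 1.41 to 1.76 in injured and 0.738 to 1.08 in all, minus T/NK −0.0252 to 0.768 and −1.21 to 0.186, minus endothelium 1.58 to 1.98 and 0.723 to 1.19. With fewer libraries these exact tests cannot reach the threshold, except over all 11. Gene counts gave 30 to 104 in macrophages, 20 to 223 in dendritic cells and 18 to 40 and 0 to 58 for the interactions, with a lone library assumed to vary like the other group. Pools of at least 50 cells, and gene tests without predicted doublets, left too few pools and were not run; a dendritic block at 20 cells could not be fitted. Over the other settings 391 values of the main results were counted as the same, beside 29 weaker, 7 stronger, 17 moved and 17 reversed. For gene counts and the S-phase share, the same meant close to the main value, with no check of direction or threshold.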
